A study of Mus musculus with 2 samples.

Results

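The genes described here are 10 genes of MHC class I antigen presentation, measured in mouse olfactory bulb, where sensory neurons of the nose send their axons. They were found by gene name among the non-control probes of the array: the heavy chains H2-K1, H2-D1, H2-Q4, H2-T23 and H2-M3, the light chain B2m, the peptide transport and loading genes Tap1, Tap2 and Tapbp, and the regulator Nlrc5. All 10 were on the array, under 17 probes, out of 37068 gene names. Total RNA from 1 mouse kept under odor-enriched conditions and 1 mouse kept under standard odor conditions (control) was read in 1 colour (Cy3) on 1 Agilent array each. The labels give no strain, age, sex, odor, dose or duration for either mouse. They call the tissue neurons of the bulb and its source the bulb, with no sorting step.

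MHC class I molecules display short peptides from inside a cell on its surface, where CD8 T cells and natural killer (NK) cells inspect them. A heavy chain pairs with beta-2-microglobulin, and the pair is loaded in the endoplasmic reticulum with peptides that the transporter of Tap1 and Tap2 brings in from the cytosol, held in place by tapasin (Tapbp). Nearly all nucleated cells can make class I molecules, neurons hold little of them at rest, and interferon gamma raises the whole set in many cell types.

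With 1 array per group there was no replicate and no test, and precision is limited by that number. A difference is the log2 signal of the odor-enriched array less that of the control array, after subtraction of each array's 75th percentile. A gene's difference averages its probes that both arrays showed well above background. Of the 59305 non-control spots per array, 67.6% were well above background in the odor-enriched sample and 73.7% in the control sample, and no spot was saturated. The difference had a pooled SD of 0.05 between repeat spots (300 probes) and of 0.63 between different probes of a gene (8234 genes). Neither covers the spread between mice. All 7 neuron markers were measured on both arrays with a median difference of -0.30, and so were all 7 endothelial and all 8 macrophage and microglia markers, so RNA of cells other than neurons was present in both samples.

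The gene starts of the classical heavy chains are known for a run of regulatory sites, an NF-kappaB site, an interferon response element and a module with a CRE-like site and a CCAAT box, the last bound by the RFX, CREB and NF-Y factors that recruit the Nlrc5 protein. The 200 bases before the annotated start are shown for the 5 heavy chains and B2m because these genes share an assembly and are known for shared control. They are RefSeq sequences on GRCm38.p6, found by symbol for 8 of the 10 genes, all but Tap2 and Nlrc5, and read 5′ to 3′ in the direction of the gene. Capitals mark matches to any of the motifs searched on both strands: the interferon response element (GAAA, any 2 bases, GAAA), its shorter form (GAA, any 2 bases, GAAA), the gamma-activated site TTCNNNGAA, the kappaB-type motif (GGG, any 2 bases, T, any 2 bases, CC), the CRE-type motif TGACG and CCAAT. Matches of the kappaB-type motif overlap each other in H2-K1, H2-D1 and H2-Q4, and 1 overlaps CCAAT in H2-M3.
H2-K1 (chr17:34000348-34000547, minus strand): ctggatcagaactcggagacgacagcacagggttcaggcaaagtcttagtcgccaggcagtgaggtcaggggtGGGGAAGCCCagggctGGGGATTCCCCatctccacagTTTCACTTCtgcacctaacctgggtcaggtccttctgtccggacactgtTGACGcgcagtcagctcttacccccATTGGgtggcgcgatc
H2-D1 (chr17:35262894-35263093, plus strand): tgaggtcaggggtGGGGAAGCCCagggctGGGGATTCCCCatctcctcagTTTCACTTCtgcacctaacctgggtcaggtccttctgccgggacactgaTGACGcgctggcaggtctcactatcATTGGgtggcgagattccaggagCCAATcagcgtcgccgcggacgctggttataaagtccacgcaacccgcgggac
H2-Q4 (chr17:35379417-35379616, plus strand): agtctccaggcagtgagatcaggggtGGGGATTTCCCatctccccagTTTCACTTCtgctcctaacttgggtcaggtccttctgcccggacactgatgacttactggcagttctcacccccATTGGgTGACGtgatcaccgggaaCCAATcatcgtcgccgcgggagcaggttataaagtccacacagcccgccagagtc
H2-M3 (chr17:37270034-37270233, plus strand): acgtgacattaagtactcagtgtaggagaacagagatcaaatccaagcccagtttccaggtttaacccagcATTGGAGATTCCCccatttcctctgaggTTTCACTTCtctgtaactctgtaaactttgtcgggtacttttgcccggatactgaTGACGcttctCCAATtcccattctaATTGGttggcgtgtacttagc
H2-T23 (chr17:36032702-36032901, minus strand): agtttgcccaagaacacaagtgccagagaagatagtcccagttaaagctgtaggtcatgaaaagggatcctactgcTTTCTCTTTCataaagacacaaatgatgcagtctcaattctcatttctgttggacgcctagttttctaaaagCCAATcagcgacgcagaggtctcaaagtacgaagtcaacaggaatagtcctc
B2m (chr2:122147487-122147686, plus strand): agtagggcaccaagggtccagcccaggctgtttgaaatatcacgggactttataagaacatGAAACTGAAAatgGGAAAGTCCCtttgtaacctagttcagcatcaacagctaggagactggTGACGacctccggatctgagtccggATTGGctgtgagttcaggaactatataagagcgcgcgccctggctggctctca

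Over the 250 bases before the start, 4 of the 8 member promoters held the shorter interferon response element (H2-K1, H2-D1, H2-Q4 and H2-M3) and another 2 the full one (H2-T23 and B2m). Of 27025 promoters in the table, 1 per gene, 8.91% held either form. The kappaB-type motif was found in 5 of the 8, against 15.7% of all promoters, and TGACG in 6 of the 8, against 17.9%. CCAAT was found in 8 of the 8, against 34.5%, and the gamma-activated site in H2-M3 only, against 7.18%. A kappaB-type match began 21 bases before the response element in H2-K1, H2-D1 and H2-Q4, where a second, overlapping match begins at the next base, and the single match of H2-M3 began 25 bases before it. Counted from first base to first base, TGACG began 49 bases after the response element in H2-K1 and H2-D1. It began 55 bases after it in H2-M3. In H2-Q4 the letters 49 bases after the response element read TGACT, which is no match. The TGACG matched in H2-Q4 is a different place, 80 bases after the response element and past a CCAAT match. In the windows of Tap1 and Tapbp no response element of either form was matched. A match describes the letters and not a bound site, and a missing match does not show that a site is absent.

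**Figure D1:**
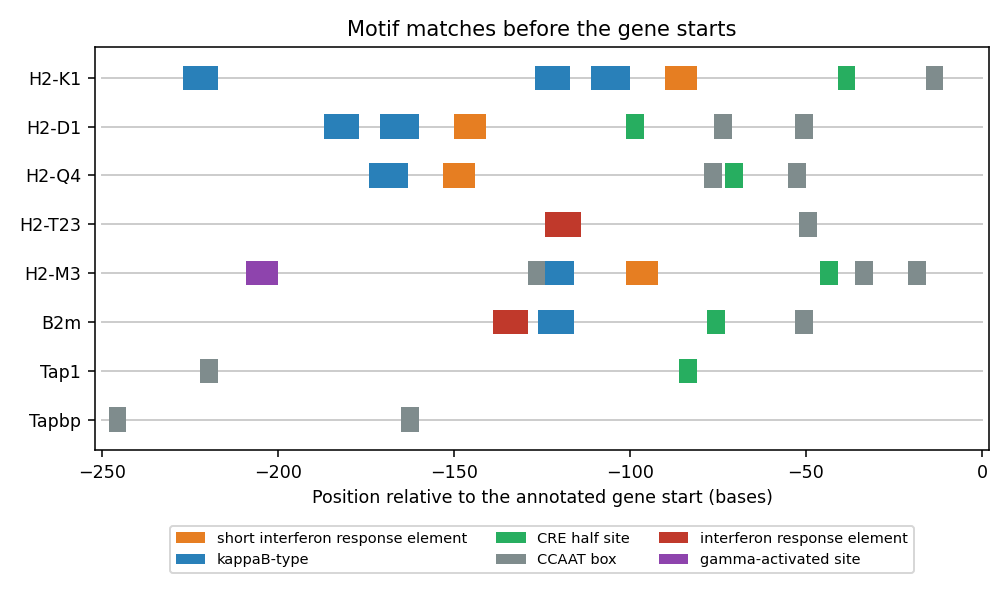
Motif matches in the 250 bases before the annotated start of 8 class I presentation genes, with the position in bases relative to the start on the horizontal axis. The 4 heavy chains H2-K1, H2-D1, H2-Q4 and H2-M3 carry a kappaB-type match that begins 21 or 25 bases before a short interferon response element. Tap1 and Tapbp have no match to the letters of either motif in this window.

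All 10 genes had a higher normalized signal in the odor-enriched mouse than in the control mouse. The median difference was 2.25, a 4.75-fold higher signal, against a median of 0.0016 over the 23872 genes measured on both arrays. At least 2-fold higher were 8 of the 10, where 11.5% of all genes measured passed that fold, and 0 were at least 2-fold lower, where 5.52% did. Among genes of at least median signal, where 9 of the 10 members lay, the share higher was 8.92%. At least 4-fold higher were 6 members, against 3.54% of all genes, and at least 8-fold higher were 3, against 1.21%. The gene values are averages of single probes, so a count by probe describes the same data. Of the 17 probes, 16 were well above background on both arrays, and all 16 were higher in the odor-enriched sample. At least 2-fold higher were 14, against 11.6% of all such probes.

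These differences are relative to the bulk of the probes on each array. When the arrays were scaled on 8 spike-in probes of E1A RNA, the median of all genes moved by -2.12 and the share of higher genes among those at least 2-fold different was 1.14%, against 67.6% in the setting used here. It was 50.9% with median centring and 88.5% with the deposited series matrix values. The spike-ins themselves stood 1.54 to 4.73 higher in the odor-enriched sample, and the labels do not say how they were added. Relative to the median of all genes, all 10 members stood higher in each of the 15 settings run. The median member lay 1.94 to 2.38 above that median. Settings that only subtract another constant from each array could change neither result, so they do not test it. Among them were median centring, E1A scaling and the series matrix values, where the median member lay 2.25 above, the same as in the setting used here.

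**Figure D2:**
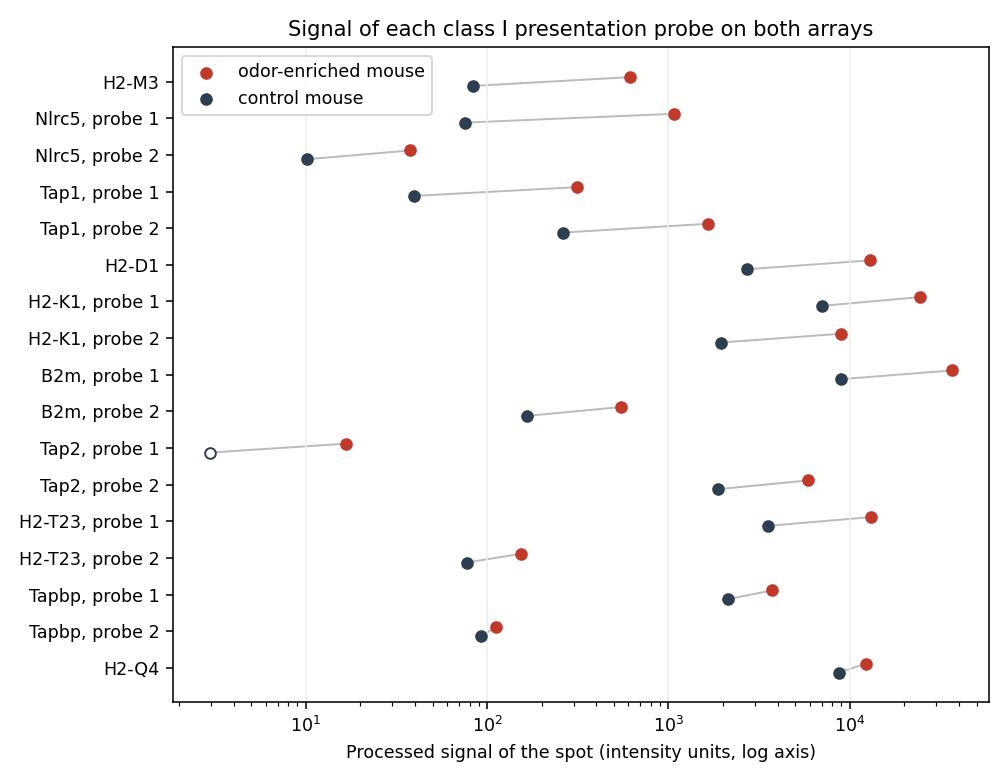
Processed signal of each of the 17 probes (intensity units, log axis) in the odor-enriched mouse (red) and the control mouse (dark), 1 spot per probe and array, before scaling between arrays. Every red point lies to the right of its dark partner, and the open point is the Tap2 probe that was not well above background in the control. Signals of different probes cannot be compared with each other.

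Among the heavy chains, H2-K1 and H2-D1 are the classical molecules that present peptides to CD8 T cells. Their signals are processed intensities as extracted, before scaling, which adds 0.31 to each log2 difference. The probe of H2-K1 at chr17:34133055-34133114 (mm9, minus strand) had a signal of 24309.7 in the odor-enriched sample and 6985 in the control, a difference of 2.11. Its other probe, at chr17:34133984-34134043, had 8906 and 1945, a difference of 2.51. The gene value of H2-K1 was 2.31 (4.95-fold). H2-D1, with 1 probe at chr17:35403886-35403945 (plus strand), had 12898 in the odor-enriched sample and 2718 in the control, a difference of 2.56 (5.89-fold). Both classical heavy chains were thus more than 4-fold higher by every probe.

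The non-classical heavy chains spread more widely. H2-M3, which presents N-formylated peptides such as those of bacteria and mitochondria, had 612 in the odor-enriched sample and 83.7 in the control (chr17:37411350-37411409, plus strand), a difference of 3.18 (9.06-fold). This was the largest difference of the 10, with 0.976% of all genes measured lying above it, and it was 2.53 with normexp background correction. H2-T23 encodes Qa-1, which shows leader peptides of other class I chains to the NK receptor of CD94 and NKG2A. Its probe at chr17:36167338-36167574 (minus strand), whose 60 bases span 237 bases of genome, had 13156 in the odor-enriched sample and 3544 in the control, a difference of 2.20. The probe at chr17:36168022-36168081 had 154 and 77.5, a difference of 1.31, and the gene value was 1.75 (3.37-fold). This far dimmer probe was designed on an Ensembl transcript and matched no RefSeq symbol by accession.

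The first H2-T23 probe lay in a small area of the odor-enriched array where neighbouring spots were brighter too. The 40 spots around it had a median difference of 2.08, with a median signal of 236 in the odor-enriched sample and 9.01 in the control, far below the probe's own 13156. Around the other 16 member probes that median lay between -0.23 and 0.40. With such areas left out, 0.234% of spots, H2-T23 stood at 1.31 by its second probe alone. The effect of the bright area on the first probe was not tested.

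H2-Q4, the heavy chain known as Qb-1, stood apart at the low end. Its probe at chr17:35521294-35521353 (plus strand) had 12237 in the odor-enriched sample and 8761 in the control, a difference of 0.79 (1.73-fold). Of all genes measured, 15.5% had a larger difference. It is the only heavy chain of the 5 under 2-fold, and with the series matrix values it stood at 1.13.

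Heavy chain genes are closely related, so the letters of their probes were compared. The second H2-K1 probe, the first H2-T23 probe and a probe that the array names H2-L are shown because they share an unbroken run of 29 bases. Capitals mark that run, and positions are on mm9.
H2-K1 probe (chr17:34133984-34134043, minus strand): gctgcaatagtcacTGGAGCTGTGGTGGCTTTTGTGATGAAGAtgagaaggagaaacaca
H2-T23 probe (chr17:36167338-36167574, minus strand): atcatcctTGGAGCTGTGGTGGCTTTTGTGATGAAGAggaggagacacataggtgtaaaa
H2-L probe (chr17:35403191-35403250, plus strand): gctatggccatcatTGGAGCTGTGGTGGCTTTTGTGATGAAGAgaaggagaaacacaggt

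These 3 probes differed by 2.51, 2.20 and 2.76 between the arrays. Aligned on the shared run, the H2-T23 and H2-L probes had 48 identical bases of 54, and the H2-K1 and H2-L probes 41 of 60. The other 5 heavy chain probes of the members shared at most 12 bases in a row with any of the heavy chain probes of other genes. The H2-K1 probe without the shared run differed by 2.11 and the other H2-T23 probe by 1.31. Comparing probe letters with each other does not show that a probe is specific to its transcript. On mm9 the H2-L probe lies close to the H2-D1 probe, which is at chr17:35403886-35403945 on the same strand. Which transcripts each probe bound, and whether the H2-L probe reads H2-D1, was not tested.

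B2m, the light chain that every class I molecule needs, had 36635 in the odor-enriched sample and 8915 in the control by its probe at chr2:121978401-121978460 (mm9, plus strand). Its second probe, designed on an unclassified cDNA at chr2:121974599-121974658, had 545 and 166. The differences were 2.35 and 2.03, and the gene value was 2.19 (4.56-fold). The light chain stood 0.12 below H2-K1, less than the pooled SD of 0.63 between probes of a gene.

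Of the peptide transporter, the Tap1 subunit had a larger gene value than the Tap2 subunit, whose value rests on 1 probe. Tap1 had 315 in the odor-enriched sample and 39.5 in the control by its probe at chr17:34330854-34330913, a difference of 3.31. By its probe at chr17:34334022-34334081 it had 1654 and 262, a difference of 2.97, and the gene value was 3.14 (8.80-fold), or 2.41 with normexp correction. Tap2 had 5921 in the odor-enriched sample and 1867 in the control by its probe at chr17:34353116-34353175. The difference was 1.98 (3.94-fold), or 1.88 with normexp correction. The other Tap2 probe, at chr17:34341478-34341537, had 16.6 in the odor-enriched sample and 2.98 in the control, where it was not well above background. That probe was 4.24-fold higher when measured from the lowest normalized signal well above background in the control. This floor is taken over all probes and is not the detection limit of this one. With it counted, the Tap2 value was 2.38. All of the Tap1 and Tap2 probes lie on the plus strand.

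Tapbp, which encodes tapasin, the bridge between the transporter and the empty heavy chain, differed less. It had 3746 in the odor-enriched sample and 2119 in the control by its probe at chr17:34066022-34066081, and 112 and 92.7 by its probe at chr17:34063096-34063155, both on the plus strand. The differences were 1.13 and 0.58 and the gene value was 0.86 (1.81-fold), a difference that 14.1% of all genes exceeded. Only the first of its 2 probes passed 2-fold.

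Nlrc5, the NLR family protein that acts as the class I transactivator, had 1069 in the odor-enriched sample and 75.9 in the control by its probe near the end of the transcript (chr8:97051105-97051164, plus strand). Its probe at chr8:97030478-97030624, which spans 147 bases of genome, had 37.6 and 10.2. The differences were 4.13 and 2.20, the widest gap between probes among the 6 members with 2 measured probes, and the gene value was 3.16 (8.95-fold). With normexp correction the gene value was 2.04.

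**Figure D3:**
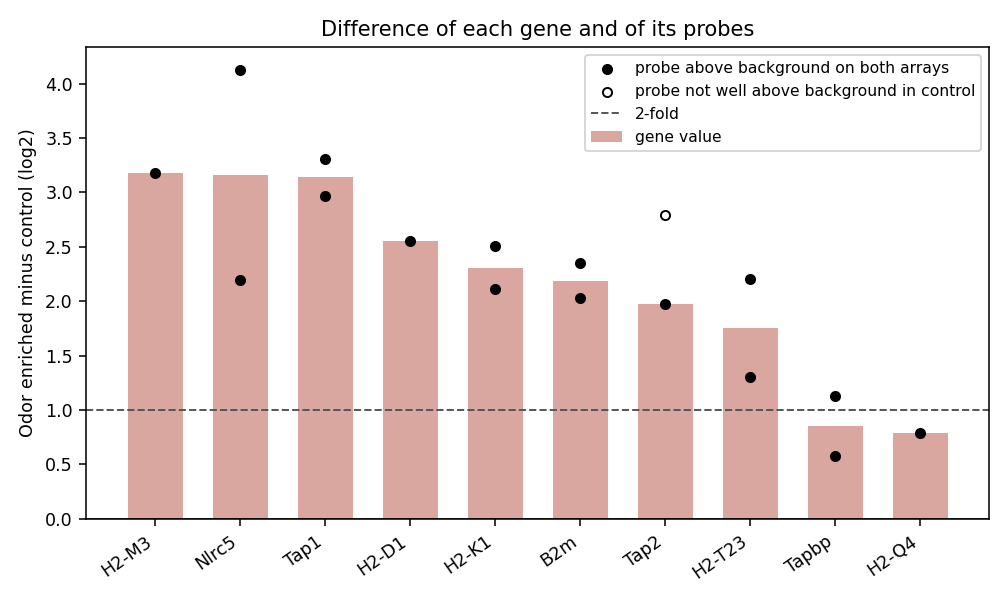
Difference of each gene (bars) and of its probes (points), odor enriched minus control in log2 units, with the dashed line at 2-fold. H2-M3, Nlrc5 and Tap1 lie above 3, H2-D1, H2-K1, B2m, Tap2 and H2-T23 between 1.75 and 2.56, and Tapbp and H2-Q4 below the line.

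In the order of differences, H2-M3 (3.18), Nlrc5 (3.16) and Tap1 (3.14) came first. H2-D1, H2-K1, B2m, Tap2 and H2-T23 followed between 2.56 and 1.75, and Tapbp (0.86) and H2-Q4 (0.79) came last. Of the 9 steps between neighbours, 8 were smaller than the pooled SD between probes of a gene, so their order is not settled. The step of 0.90 from H2-T23 to Tapbp was larger, but it shrinks with H2-T23 at 1.31, the value without the bright area. Since that SD leaves out the spread between mice, this step is not settled either.

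The remaining heavy chain genes were counted from a list of 26, of which 24 were on the array. Of 15 measured on both arrays, 13 passed 2-fold upward and 0 downward, and their median was 2.27. H2-L, whose position is close to that of the member H2-D1, is counted among them. H2-Q5 (4.03), a non-coding locus in the array's annotation, and H2-Q7 (3.09, with 3 probes from 2.86 to 3.23) were highest, and H2-T3 (0.24) and H2-Q1 (0.16) lowest. Neither array had a signal well above background for 8 others, and 1 gene, H2-M5, named after its values were seen, was above background in the control alone. The median with normexp was 1.64.

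The machinery around the members was uneven. Tapbpl, the tapasin-like peptide editor TAPBPR, stood at 1.71, the single gene past 2-fold among 12 chaperones and loading genes of the endoplasmic reticulum, whose median was 0.39. The peptide-trimming protease Erap1 stood at 0.76 and the loading complex oxidoreductase Pdia3 at 0.49, while the lectin chaperones Calr (0.05) and Canx (-0.18) were near 0. Of 9 cytosolic peptidases 0 were at least 2-fold different, with Tpp2 (0.83) and Lap3 (0.67) highest and Nln (-0.29) and Npepps (-0.78) lowest. The immunoproteasome subunits, which shape the peptides that Tap1 and Tap2 carry, stood at 3.18 for Psmb9, 2.40 for Psmb8 and 1.22 for Psmb10, and the activator subunit Psme1 at 0.36. Psmb9 is transcribed away from Tap1 out of a common promoter, their 300-base windows overlapping by 275 bases, and the Tap1 difference was 3.14.

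Among 18 transcriptional regulators of class I genes, 5 passed 2-fold upward and 0 downward, around a median of 0.26. They included Irf1 (2.21), a factor that binds interferon response elements, Stat2 (1.35), the feedback inhibitor Socs1 (1.72) and Ciita (2.25), the class II relative of Nlrc5, whose 4 probes ran from -1.21 to 4.20. The DNA-binding partners of Nlrc5 were all under 2-fold: Rfx5 (0.26), Rfxap (0.23), Rfxank (-0.21), Creb1 (0.40), Atf1 (0.22), Nfya (-0.11), Nfyb (-0.59) and Nfyc (-0.20). So were the NF-kappaB subunits Rela (0.26) and Nfkb1 (0.47) and the interferon factors Irf2 (0.48), Irf8 (0.07) and Irf9 (0.22).

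Receptors listed as reading class I or class I-like molecules were mostly higher as well. Of 9 with values on both arrays 8 passed 2-fold upward (median 2.45), against 11.5% of all genes measured. Another 5 were above background in the odor-enriched sample alone, and no share over all genes is given here for that pattern. The CD8 coreceptor chains stood at 5.25 (Cd8b1) and 3.36 (Cd8a), and Klrd1, the CD94 chain that binds Qa-1, at 3.88. Their normalized control levels were low, at -3.37, -5.40 and -3.65 in that order, which limits how well these differences are known. The lowest control level well above background was -5.69. Klrc1, the NKG2A chain that pairs with CD94, was not well above background on either array. Pirb, a class I receptor of myeloid cells and neurons, stood at 1.05. The list's median was 1.19 with normexp correction. Its median of 2.45 in the setting used here is the value of Klrk1, a receptor of class I-like ligands.

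T and NK cell markers were higher in the same sample, with 11 of 12 past 2-fold and a median of 3.88 (2.53 with normexp correction), and so were endothelial markers, with 6 of 7 and a median of 1.80. All of these markers were above background on both arrays. Macrophage and microglia markers had a median of 0.34 (1 of 8 past 2-fold upward), B cell markers 0.76 (1 of 3) and dendritic cell markers 0.38 (0 of 4). The B cell marker Cd79a, named after its values were seen, was above background in the control alone. Astrocyte markers had a median of -0.60, with Gfap at -2.13 the 1 of 5 at least 2-fold lower. The median of the neutrophil markers was -0.54, and 1 of 5 passed 2-fold upward. Neuron markers had 0 of 7 at least 2-fold different, and of the olfactory sensory neuron markers 4 of 5 were at least 2-fold lower, with a median of -1.51. The neuron median was 0.03 with the series matrix values. The 10 reference genes had 0 at least 2-fold different and a median of 0.15. The part of these cell types in the class I differences was not tested, and in whole tissue more cells of a type and more RNA per cell cannot be told apart.

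**Figure D4:**
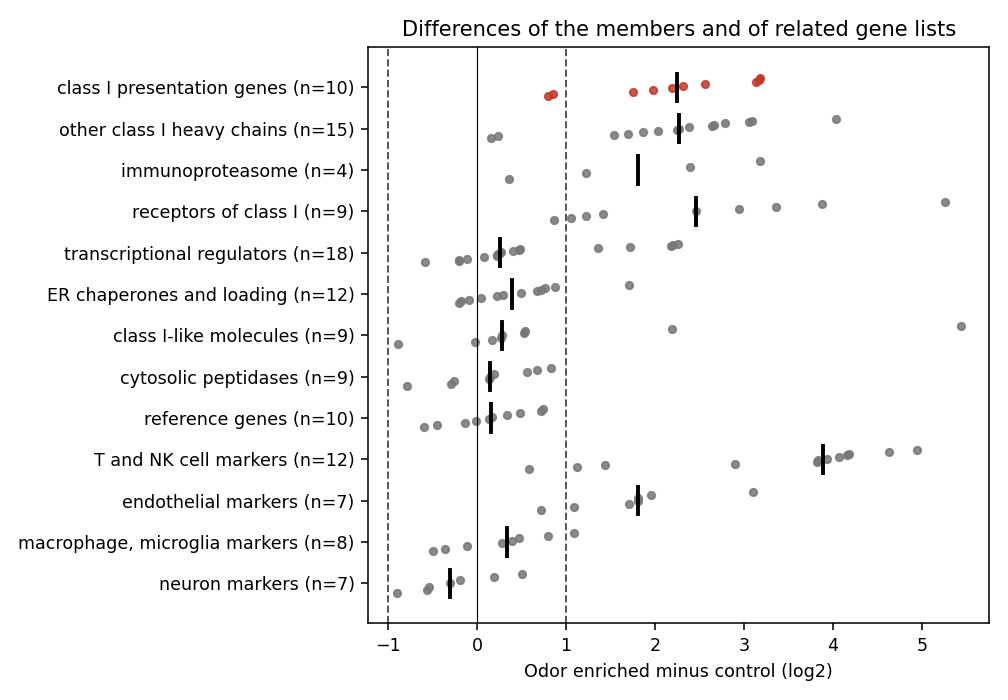
Differences of single genes (points) and their medians (bars) for the 10 class I presentation genes (red) and related lists (grey), odor enriched minus control in log2 units, with dashed lines at 2-fold. Other class I heavy chains, receptors and the T and NK cell markers have medians of 2.27, 2.45 and 3.88, while reference genes centre on 0.15.

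Position was compared last, since 8 of the 10 members lie on chromosome 17 in the major histocompatibility complex, B2m lies on chromosome 2 and Nlrc5 on chromosome 8. Between the probes of Tapbp and H2-M3, 3348 kb on mm9, 181 genes were measured on both arrays. Apart from the members, 20 of 25 H2 genes there, class II and H2-L included, passed 2-fold upward (median 2.25). Of the 148 genes in the window that are not named H2, 28 (18.9%) passed 2-fold upward and 7 downward, around a median of 0.09, against 9.56% upward in the rest of chromosome 17. Genes named H2 in the window were thus mostly higher, while the median of those not so named was near 0. The split is by name and not by function. Genes not named H2 include the immunoproteasome genes Psmb8 (2.40) and Psmb9 (3.18). B2m and Nlrc5, outside the complex, stood within the range of the members inside it.

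**Figure D5:**
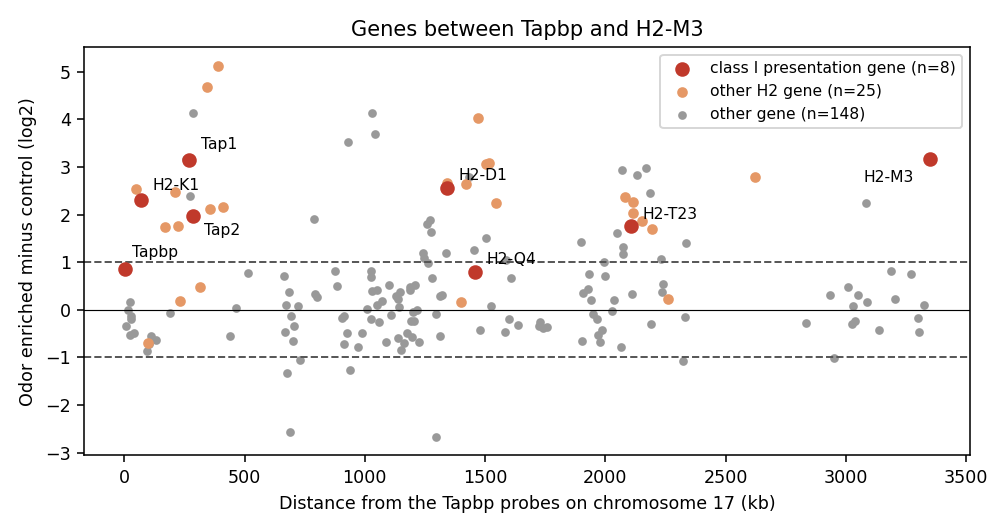
Difference of the 181 genes measured between Tapbp and H2-M3 (odor enriched minus control, log2) by distance in kb from the Tapbp probes, with dashed lines at 2-fold. The 8 members (red) run from 0.79 to 3.18 across the window, and most of the 148 genes not named H2 (grey) lie between the dashed lines.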

How the data were processed

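Cy3-labelled total RNA of 2 olfactory bulb samples, 1 odor enriched and 1 control, was measured on 1 array each. Per the file headers, Agilent Feature Extraction 11.5.1.1 gave the intensities, which are background subtracted and detrended within each array, not normalized between arrays. Probe positions are on mm9, per the file headers. The authors' deposited series matrix holds log2 values that equal the log2 processed signal minus a constant per array (13.8 odor enriched, 14.5 control); the origin of these constants is unknown, and the columns have medians of -8.98 and -9.48.

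Here, outlier-flagged spots (183 odor enriched, 122 control) were left out, spots of a probe were averaged on the log2 scale, and the 75th percentile over probes was subtracted (7.66 and 7.97 log2 units). Local background had a median of 22 in the odor-enriched array and 17 in the control array. The error given by the extraction software was 10.0% of the signal at the median over 34 member spot values and at most 34.6%. Its minimum was also 10%, and 30 of the 34 lay between 10% and 11%, so it is not a spread measured between spots. Genes were summarised by averaging those of their probes that carried the well-above-background flag on each array. For a probe above background on 1 array only, a bound was computed against the lowest normalized signal above background on the other array (-5.69 in the control). The probe's own signal there was used instead where it was higher. That floor is the lowest over all probes, so the bound does not limit the noise of a single probe. All 10 members were named with every probe; of the related lists, regulators, loading genes and receptors could be named freely and otherwise the 2 highest and 2 lowest. The value of 1 regulator is not reported here. No gene was named for a similar pattern, since 2 arrays give 1 difference per gene. Members, lists and the alternatives were chosen with earlier results of these data known. By accession, 15 of the 17 member probes matched RefSeq under the same symbol. Python 3.11.15, numpy 2.4.6, pandas 2.3.3, matplotlib 3.10.9, R 4.3.3 and limma 3.58.1 were used, and the steps were tested on simulated data.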

Additional observations from a re-analysis of the deposited data

How the results depend on the processing

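Across 15 alternatives of scaling, background correction, filters, probe choice and threshold, and the bright-area setting added after seeing the data, the count of members at least 2-fold higher was 8 to 10 except with E1A spike-in scaling, where it was 3, with 2 at least 2-fold lower and a median of 0.13. Outside that scaling the median ran from 2.03 to 2.58. Under it 4 members turned negative, H2-T23 (-0.36), Tap2 (-0.14), Tapbp (-1.26) and H2-Q4 (-1.32), as did the medians of the endothelial (-0.31) and immunoproteasome (-0.31) lists and of every list with a lower positive median; the whole distribution moved by -2.12, so this follows from the shift. Of 470 values recomputed for 33 results, 418 stayed within the tolerance set (the SD between probes, or 1.5 times for counts). Part of these could not move, since settings of probe choice leave a gene with 1 probe, such as H2-D1, unchanged.

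The share of all genes higher by at least the threshold fold was 1.04% with E1A scaling, 25.3% with no filter on dim probes, 5.26% with normexp, 18.7% with the series matrix values, 21.2% at 1.5-fold and 5.39% at 3-fold. The share lower by at least that fold was 90.2% with E1A scaling, 2.61% with normexp, 8.80% where 1 array above background sufficed, 8.64% with median centring, 2.44% with the series matrix values, 16.3% at 1.5-fold and 1.38% at 3-fold. The cause was not tested. No paired analysis was possible because each group is 1 mouse; for the same reason leaving out a replicate could not be tried. Signals close to the local background, such as those of the Tap2 and Nlrc5 probes at 2.98 and 10.2 in the control, limit how well their differences are known.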

Other observations

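Molecules with a class I-like fold had a lower median than the members. Of 9 with values on both arrays, 2 passed 2-fold upward and 0 downward, around a median of 0.28. H60a, a ligand of the activating NK receptor NKG2D, stood at 5.44, with a normalized level of 0.32 in the odor-enriched sample and -5.11 in the control, and Procr, the endothelial protein C receptor, at 2.19. Mr1 (-0.02), which presents vitamin metabolites, and Azgp1 (-0.90) were lowest. A further 3 were above background in the odor-enriched sample alone, all of them NKG2D ligands and named after their values were seen. That detection pattern itself favours a higher value in the odor-enriched sample. The computed bounds were 62.8-fold for H60b, 3.35-fold for Raet1e and 2.24-fold for Raet1a, and they do not cover noise in a dim control spot. H60c, also an NKG2D ligand, was above background in the control alone, and Raet1c and Ulbp1 on neither array. No share over all genes is given here for detection on a single array. Klrk1, the NKG2D receptor itself, stood at 2.45.

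The 2 measured probes of H2-Bl, a heavy chain gene singled out after its values were seen, stood at 0.13 and 3.59, a wider gap than for any member.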
